A study of Populus tomentosa with 12 samples.

Results

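The genes described here are the 5 poplar genes that code for the catalytic subunits of the secondary wall cellulose synthase, 5 of the 42950 gene IDs in the count files. They were chosen by ID alone: CesA4 (Potri.002G257900), the pair CesA7-A (Potri.006G181900) and CesA7-B (Potri.018G103900), and the pair CesA8-A (Potri.011G069600) and CesA8-B (Potri.004G059600). The files list IDs only, and the names are those in general use for these IDs in Populus trichocarpa, whose gene models carry IDs of this form. All 5 IDs had reads in every library and were tested in every comparison.

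Cellulose is spun out at the plasma membrane by rosette-shaped complexes of cellulose synthase proteins. In Arabidopsis, plants use separate sets of subunits for the thin primary wall of growing cells and for the thick secondary wall laid down in xylem vessels and fibres, and the secondary wall complex needs CesA4, CesA7 and CesA8 together. Loss of any of these subunits in Arabidopsis weakens the xylem, whose vessels collapse inward. In poplar, a tree whose wood is mostly secondary wall, CesA7 and CesA8 are each present as duplicate copies, whereas CesA4 is single.

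The data come from RNA sequencing of micropropagated Populus tomentosa, the Chinese white poplar, in 4 groups of 3 libraries: Fe-deficient roots and Fe-deficient shoots of plants moved to a nutrient solution with 0 µM Fe, and Fe-sufficient roots and Fe-sufficient shoots of plants moved to one with 100 µM Fe. Plants of every group were labelled as seedling stage, had first grown on agar with 1.5% sucrose and 1 mg/L NAA (a synthetic auxin), were kept at 24 °C under 16 h of daily light and were chosen at about 10 cm of shoot. Replicates are called biological in the labels, but the number of plants in each and their age were not given in the sources used here. A whole shoot or root holds many cell types, of which only those forming secondary wall are known to use these genes much, and the labelled tissues could not be checked against markers, because no annotation of these IDs was used here.

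Gene counts summed to 8663523 to 10886552 per root library and 5360670 to 6149779 per shoot library. Of uniquely placed reads (in genes, outside genes or ambiguous), 1.25% to 1.41% lay outside genes in roots and 49.5% to 50.0% in shoots. Library titles also follow different series in the tissues. The reason for the different shares was not given in the labels, so tissue cannot be told apart from whatever else differed between the root and shoot libraries. Levels are given as CPM, the gene counts scaled to a common library total with TMM factors over all 12 libraries. CPM is not divided by gene length, so levels of different genes are not compared. Fe-sufficient shoot replicate 2 had the lowest mean Spearman correlation with its own group (0.963, against 0.967 to 0.972 for the other shoot libraries).

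The first question was whether Fe supply changed these transcripts in roots. It made no difference that passed the test: 0 of the 5 genes did so at an adjusted p under 0.05 by edgeR's quasi-likelihood test, 0 had an unadjusted p under 0.05, and DESeq2 called 0. Over all 23785 genes tested in roots the called share was 0.563% by edgeR and 4.66% by DESeq2, and 15.2% had an unadjusted p under 0.05. With a root library left out, edgeR called 0 (without Fe-sufficient replicate 2) to 71 (without Fe-sufficient replicate 3) genes of all, against 134 with every library. In bulk tissue fewer cells of a type and less RNA per cell cannot be told apart, and this holds for each level given here.

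CesA4, the single-copy subunit, had 93.2, 156 and 109 CPM in Fe-deficient roots and 197, 99.6 and 171 CPM in Fe-sufficient roots. The groups overlapped, since Fe-sufficient replicate 2 was as low as the lower pair of Fe-deficient libraries. On the log2 scale the difference was -0.39 ± 0.28 (SE, 95% interval -1.04 to 0.26; adjusted p by edgeR 0.564).

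Of the CesA7 pair, CesA7-A had 36.5, 40.9 and 30.2 CPM in Fe-deficient roots and 57, 27.2 and 62.8 CPM in Fe-sufficient roots. CesA7-B had 53.8, 96.5 and 56.7 CPM in Fe-deficient roots and 126, 57.8 and 108 CPM in Fe-sufficient roots. Both copies were highest in Fe-sufficient replicates 1 and 3, and in both the groups overlapped. The log2 fold changes were -0.46 ± 0.29 for CesA7-A and -0.50 ± 0.32 for CesA7-B (SE, adjusted p by edgeR 0.521 and 0.522).

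Of the CesA8 pair, CesA8-A had 28.1, 41.4 and 34.1 CPM in Fe-deficient roots and 55.2, 31.2 and 45.8 CPM in Fe-sufficient roots. CesA8-B had 42.6, 63.6 and 49.7 CPM in Fe-deficient roots and 95, 41.1 and 96.1 CPM in Fe-sufficient roots. The same pair of Fe-sufficient libraries stood above the others, while Fe-sufficient replicate 2 was the lowest root library for CesA8-B. The log2 fold changes were -0.36 ± 0.23 for CesA8-A and -0.58 ± 0.32 for CesA8-B (SE, adjusted p by edgeR 0.511 and 0.443).

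All 5 fitted values in roots thus lay below 0, with a median log2 fold change of -0.46 against 0.01 over all genes tested, of which 48.7% lay below 0. The genes went together over the root libraries, as given below, so the 5 signs do not count as 5 separate observations. The sign held under each scaling and with any 1 root library left out. The 95% intervals reach from a 0.399-fold level (CesA8-B) to a 1.19-fold level (CesA4 and CesA7-B), so a sizeable fall as well as a small rise lies inside them. The groups of libraries were separated in 0 of the 5 genes, against 21.4% of all genes tested in roots.

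**Figure D1:**
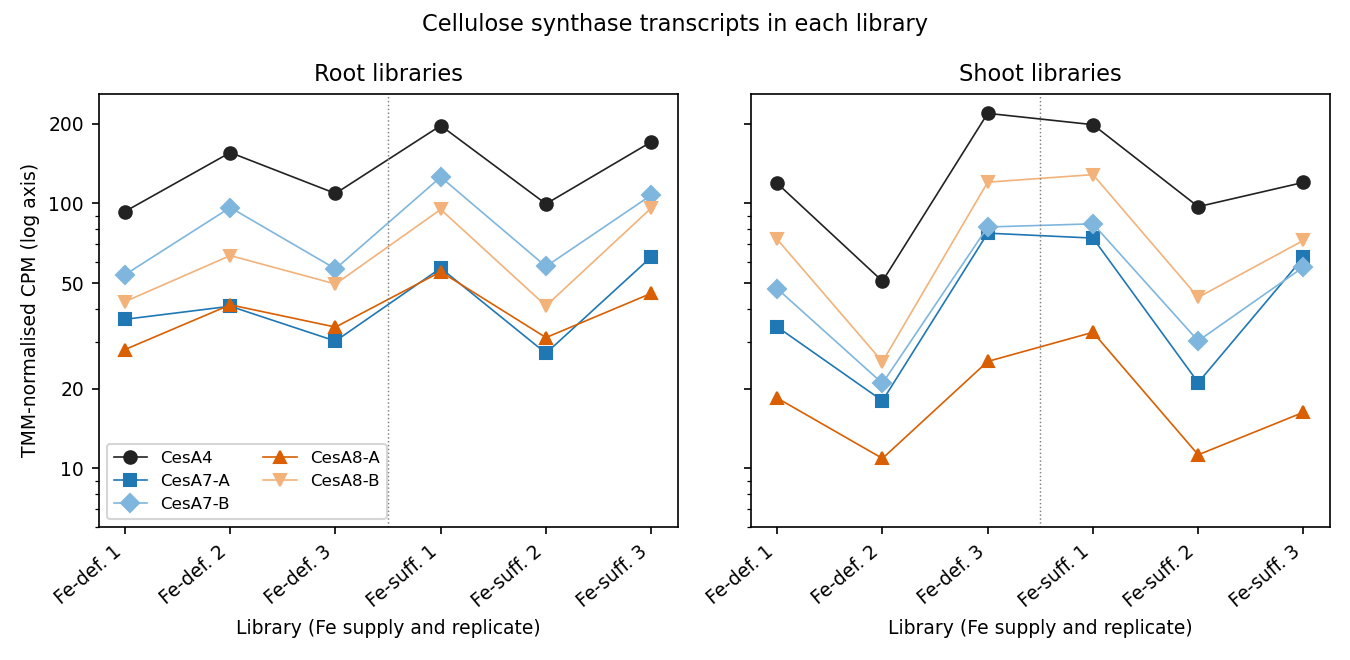
TMM-normalised CPM (log axis) of the 5 genes in each of the 6 root libraries (left) and 6 shoot libraries (right), with Fe-deficient libraries left of Fe-sufficient ones; lines only join the points of a gene. The 5 lines run nearly parallel, from 27.2 to 197 CPM in roots and from 10.9 to 219 CPM in shoots. In shoots the high and low libraries fall on both sides of the dotted line between Fe supplies. In roots the low libraries do so, while Fe-sufficient replicates 1 and 3 are the highest for every gene.

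In shoots the same comparison gave 0 of 5 called genes by edgeR, 0 at an unadjusted p under 0.05 and 0 by DESeq2, where 1.16% of all 21665 genes tested were called by edgeR and 2.39% by DESeq2, and 9.09% had an unadjusted p under 0.05. With a shoot library left out, edgeR called 64 (without Fe-deficient replicate 1) to 571 (without Fe-sufficient replicate 2) genes of all, against 252 with every library. Libraries differed more within a group than between the groups. CesA4 had 119, 50.9 and 219 CPM in Fe-deficient shoots and 198, 97.2 and 120 CPM in Fe-sufficient shoots. Its highest and its lowest shoot library were both Fe-deficient.

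CesA7-A had 34.2, 18 and 77.2 CPM in Fe-deficient shoots and 74, 21.1 and 62.5 CPM in Fe-sufficient shoots. CesA7-B had 47.7, 20.9 and 81.5 CPM in Fe-deficient shoots and 83.8, 30.3 and 57.5 CPM in Fe-sufficient shoots. The low libraries were replicate 2 of each Fe supply, for both copies.

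CesA8-A, the least counted of the 5 genes, had 18.4, 10.9 and 25.3 CPM in Fe-deficient shoots and 32.6, 11.3 and 16.3 CPM in Fe-sufficient shoots, from 55 to 157 reads a library. CesA8-B had 73.2, 25.3 and 120 CPM in Fe-deficient shoots and 128, 44.2 and 72.5 CPM in Fe-sufficient shoots. Again Fe-deficient replicate 2 was the lowest library for both copies.

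The log2 fold changes in shoots were -0.11 ± 0.52 for CesA4, -0.30 ± 0.67 for CesA7-A and -0.21 ± 0.55 for CesA7-B (SE, adjusted p by edgeR 0.989, 0.965 and 0.972). For CesA8-A and CesA8-B they were -0.15 ± 0.41 and -0.18 ± 0.63 (SE, adjusted p by edgeR 0.972 and 0.982). Their median was -0.18, against -0.01 over all genes, of which 51% lay below 0, and the sign turned for all 5 genes without Fe-sufficient replicate 1 or without Fe-deficient replicate 2, and for CesA4 and both CesA8 copies with library totals in place of TMM. The 95% intervals were wide, from 0.258-fold to 2.57-fold for CesA7-A and from 0.474-fold to 1.71-fold for CesA8-A. The groups overlapped in each of the 5 genes, where they were separated in 14.5% of all genes.

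Whether roots and shoots responded differently was tested in 1 fit of all 12 libraries. The difference passed for 0 of the 5 genes by edgeR, by DESeq2 and at an unadjusted p under 0.05, where 1.25% of all 25046 genes tested were called by edgeR and 3.41% by DESeq2, and 12.4% had an unadjusted p under 0.05. With 1 library left out, edgeR called 104 (without Fe-deficient shoot replicate 1) to 264 (without Fe-sufficient root replicate 1) genes of all, against 313 with every library. The log2 differences, root response minus shoot response, lay between -0.40 ± 0.73 (CesA8-B) and -0.15 ± 0.74 (CesA7-A; SE).

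**Figure D2:**
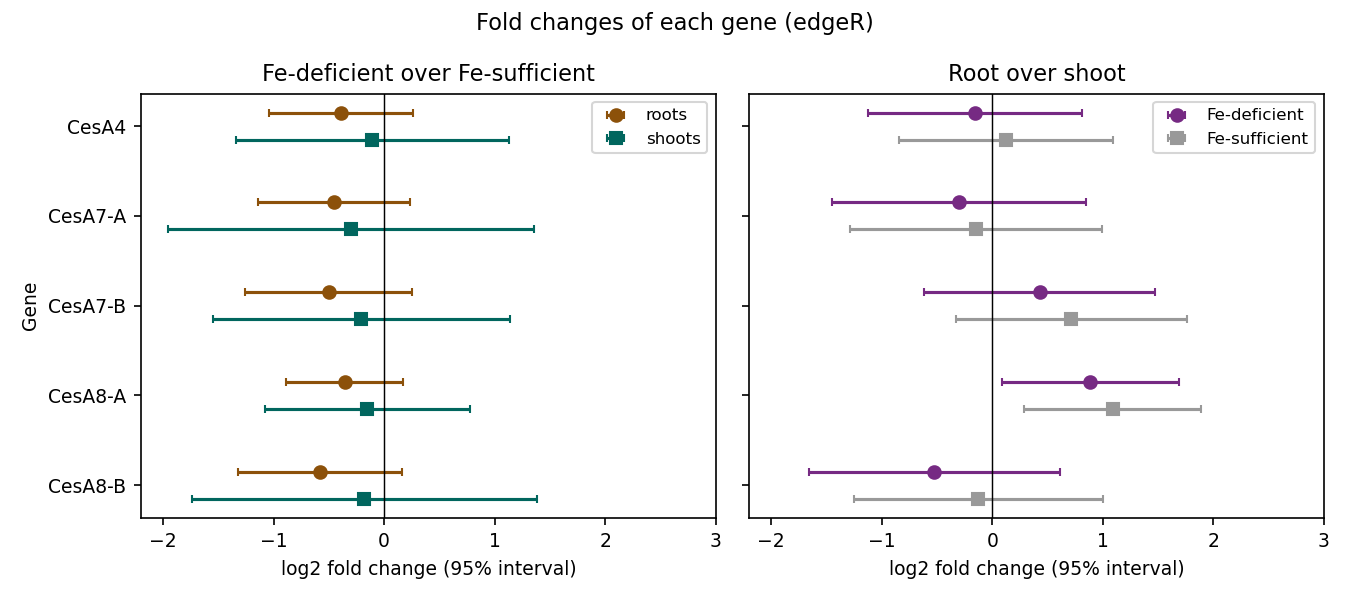
Log2 fold change of each gene with its 95% interval by edgeR, without Fe over with Fe within each tissue (left) and root over shoot at each Fe supply (right). Every interval on the left spans 0, and on the right the intervals of CesA8-A lie above 0, with an adjusted p of 0.0511 without Fe and 0.0205 with Fe.

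The spread between libraries lay above the median of all such genes in both tissues, and further above it in shoots. From the lowest to the highest root library the 5 genes differed 1.97-fold (CesA8-A) to 2.34-fold (CesA8-B). The median was 1.53-fold over 14282 genes with a mean of at least 10 CPM in roots and reads in every root library. Between 76.7% (CesA8-A) and 85.4% (CesA8-B) of those genes had a smaller range. In shoots the range was 2.99-fold (CesA8-A) to 5.08-fold (CesA8-B), against a median of 1.59-fold over 14445 genes taken in the same way. Between 94.7% and 98.5% of those genes had a smaller range. The lowest shoot library for these genes, Fe-deficient replicate 2, had 5947696 gene reads and the highest by their sum, Fe-deficient replicate 3, had 6099795. The 5 genes together took 0.0122% and 0.0484% of the gene reads in them.

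Whether the subunits moved together was asked first through correlation over the 6 libraries of a tissue, with TMM factors fitted within that tissue. In roots Pearson's r of log2 CPM (prior count 2) ranged over the 10 pairs from 0.818 (CesA7-A with CesA8-A) to 0.991 (CesA4 with CesA7-B), with a median of 0.949, and Spearman's rho from 0.714 to 1. In shoots r ranged from 0.887 (CesA7-A with CesA8-A) to 0.990 (CesA7-B with CesA8-B), with a median of 0.938, and rho from 0.886 to 1. By exact permutation, with p adjusted over 20 relations, 9 of 10 pairs in roots and 10 of 10 in shoots passed for r, and 6 and 10 for rho. The 4 root pairs that did not pass for rho included CesA4 with CesA7-A, CesA7-A with CesA8-A and CesA7-B with CesA8-B (rho 0.771 and adjusted exact permutation p = 0.108 for each). The other was CesA7-A with CesA7-B (rho 0.714, adjusted exact permutation p = 0.136). Its r was 0.649 without the 2 libraries farthest from the median of CesA7-A.

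The pair that did not pass for r was CesA7-A with CesA8-A in roots (exact permutation p 0.0556, also 0.0556 adjusted). Each pair was also taken without the 2 libraries farthest from the median of its first-named gene. The libraries left out can thus differ between pairs, and few remain. In these r stayed positive for every pair, at 0.392 to 0.992 in roots and 0.588 to 0.990 in shoots. The pair of CesA7-A and CesA8-A was lowest in each tissue. With the mean of each Fe group subtracted, r was 0.770 to 0.990 in roots and 0.892 to 0.990 in shoots, so the genes also went together among libraries of the same Fe supply.

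Duplicate copies did not give the highest coefficients. CesA7-A and CesA7-B had an r of 0.881 in roots (exact permutation p 0.0264, 0.0293 adjusted) and 0.973 in shoots (exact permutation p 0.00278, 0.00694 adjusted). For CesA8-A and CesA8-B it was 0.948 in roots (exact permutation p 0.00556, 0.0101 adjusted) and 0.941 in shoots (exact permutation p 0.00833, 0.0139 adjusted). CesA4 had an r of 0.986 with CesA8-A and of 0.863 with CesA7-A in roots (exact permutation p 0.00139 and 0.0403, adjusted 0.00694 and 0.0424). These are values side by side, and the differences between the coefficients were not tested.

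**Figure D3:**
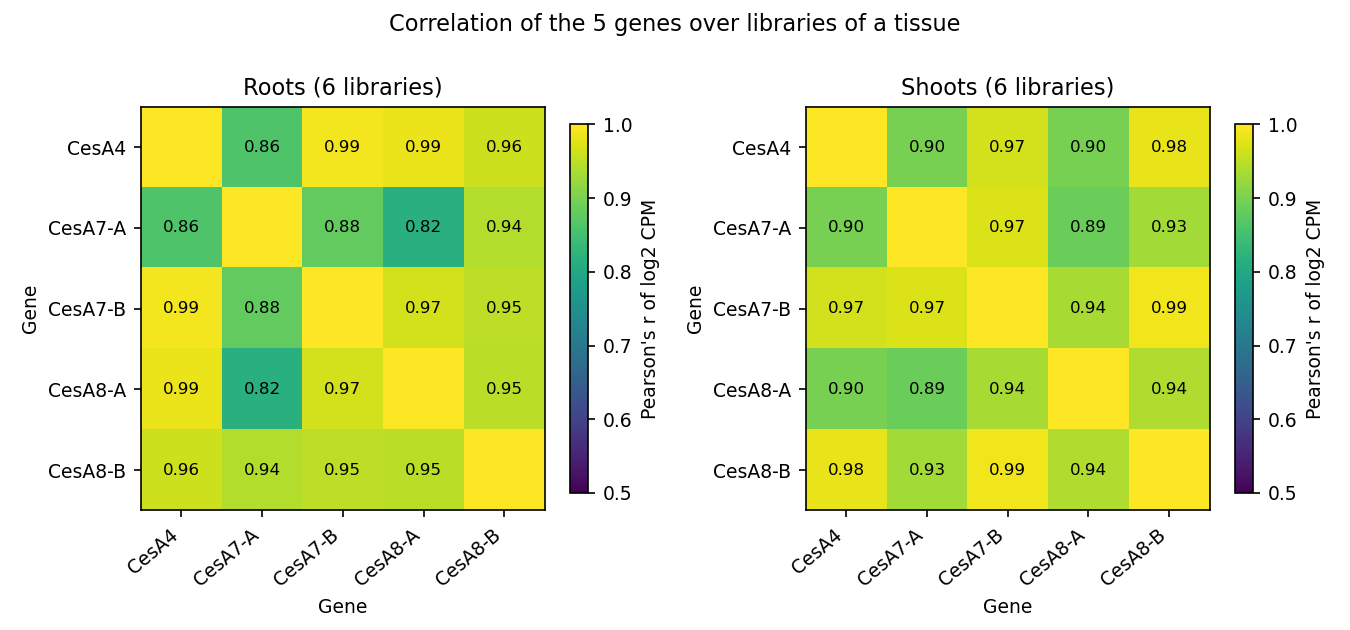
Pearson's r of log2 CPM for each pair of the 5 genes over the 6 root libraries (left) and the 6 shoot libraries (right), with the colour scale starting at 0.5. The lowest value in each tissue is that of CesA7-A with CesA8-A, 0.818 in roots and 0.887 in shoots.

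Set against all genes with a mean of at least 10 CPM in the tissue, the 5 genes were among those most like each other. Here too the TMM factors were fitted within the tissue. By r with the mean standardised profile of the other 4 genes, CesA8-B ranked 2, CesA4 ranked 3, CesA7-B ranked 6, CesA8-A ranked 20 and CesA7-A ranked 101 among 15042 genes in roots. In shoots, among 13699 genes, CesA7-B ranked 1, CesA8-B ranked 2, CesA4 ranked 19, CesA7-A ranked 30 and CesA8-A ranked 44. An r above 0.9 was reached by 0.492% to 0.538% of genes in roots and 0.613% to 0.745% in shoots. These are descriptions over 6 libraries that share their depth and scaling across genes.

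The other genes most like the mean profile of the 5 were Potri.015G106000 (r 0.995) and Potri.019G002100 (r 0.983) in roots, and Potri.019G085800 (r 0.989) and Potri.010G141600 (r 0.989) in shoots. In the other tissue their r with the profile was -0.534, 0.940, 0.723 and 0.970 in the same order. Each was chosen for its high r in the first tissue, and the difference between tissues was not tested.

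Ratios of reads within a library need no scaling, and gene length cancels when a ratio is compared between groups. With the copies of CesA7 and of CesA8 summed, the log2 ratios of CesA4 to CesA7, CesA4 to CesA8 and CesA7 to CesA8 had an SD of 0.10 to 0.12 over the 6 root libraries, where the log2 levels of the summed subunits had an SD of 0.45 to 0.51. In shoots the SD was 0.18 to 0.30 for the ratios and 0.76 to 0.85 for the levels. The log2 ratios of the copies within CesA7 and within CesA8 had an SD of 0.23 to 0.25 in roots and 0.24 to 0.37 in shoots. Copy ratios rest on single genes, down to 55 reads for CesA8-A in shoots, and subunit ratios on summed copies. Counting error therefore weighs more on the copy ratios, and the SDs do not show whether subunits keep step more closely than copies. They are a description, and the differences between them were not tested.

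The widest case was CesA4 to CesA7 in Fe-sufficient shoots. CesA4 took 59.3%, 56.6% and 58.0% of the CesA4 and CesA7 reads in Fe-deficient shoots, against 55.7%, 65.4% and 50.0% in Fe-sufficient shoots. The lowest and the highest shares over all shoots were thus both found with Fe.

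**Figure D4:**
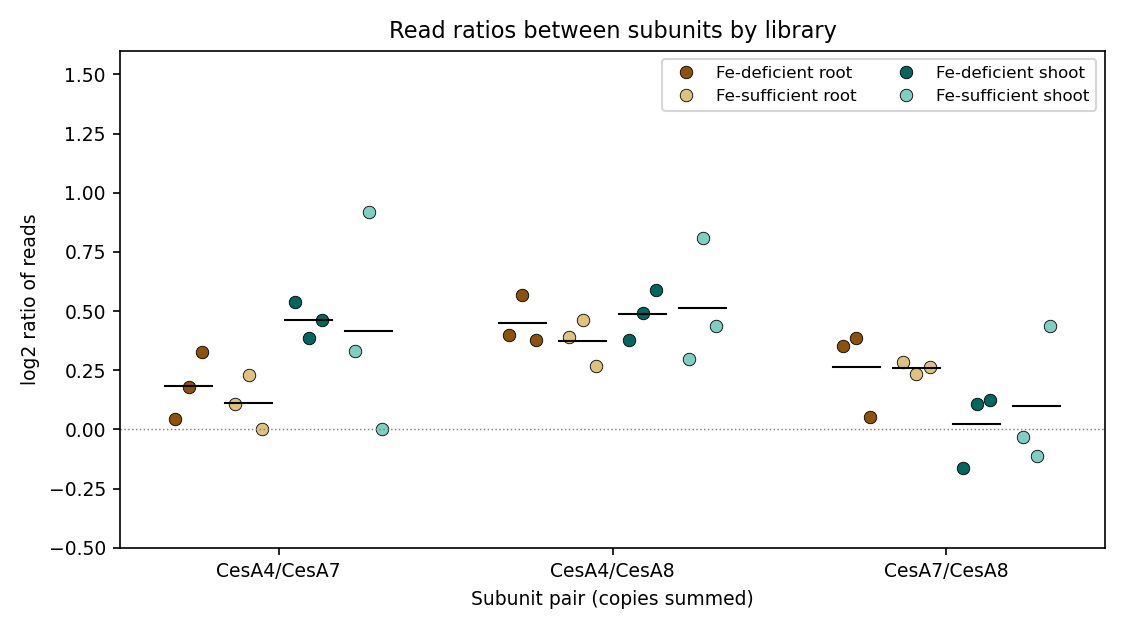
Log2 ratio of reads between subunits in each library, with the copies of CesA7 and of CesA8 summed; points are libraries and bars the means of 3. Points of the same tissue overlap between Fe supplies in all 3 ratios, and Fe-sufficient shoot replicate 2 is the highest for CesA4/CesA7, at 0.92.

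By Fe supply, 0 of the 10 tests of a ratio (5 ratios in each tissue, the copies included) passed, and in none were the groups separated. The differences in log2 ratio, Fe-deficient minus Fe-sufficient, were 0.00 to 0.16 in roots and -0.08 to 0.22 in shoots, with exact permutation p-values from 0.5 to 1 in roots and from 0.8 to 0.9 in shoots. With 3 against 3 libraries the smallest possible p is 0.1, so this design could not have passed.

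Between roots and shoots, 6 libraries each, the ratios of CesA4 to CesA7 and of CesA7 to CesA8 differed by -0.29 and 0.20 in log2 ratio, root minus shoot (two-sided exact permutation p 0.0476 and 0.0714, adjusted 0.238 and 0.268 over 15 ratio tests). For CesA4 to CesA8 the difference was -0.09 (exact permutation p 0.329, adjusted 0.964). None of these passed with all libraries. Without Fe-sufficient shoot replicate 3 the first pair did, at -0.38 and 0.28 (exact permutation test, adjusted p 0.0216 and 0.0487). Each of them passed in only 1 of the 12 runs with a library left out. In the other runs the adjusted p by exact permutation reached 0.476 for CesA4 to CesA7 and 0.536 for CesA7 to CesA8.

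The copies took different shares in the tissues. CesA7-A took less of the CesA7 reads in roots than in shoots, and CesA8-A took more of the CesA8 reads in roots than in shoots. In both pairs the 6 root libraries were separated from the 6 shoot libraries. How often ratios of other gene pairs separate the tissues was not tested. By level, root and shoot libraries were separated in 69.9% of all genes without Fe and 68.2% with Fe, so separated ratios may be common too. Those shares are only a loose guide, because they come from 3 against 3 libraries, which separate more easily than 6 against 6.

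CesA7-A made up 40.4%, 29.8% and 34.8% of CesA7 reads in Fe-deficient roots and 31.2%, 32.0% and 36.9% in Fe-sufficient roots. In shoots its share was 41.8%, 46.2% and 48.7% without Fe and 46.9%, 41.0% and 52.1% with Fe. The mean was 34.2% ± 4.0 in roots and 46.1% ± 4.18 in shoots (SD, n = 6 each). The log2 ratio of CesA7-A to CesA7-B differed by -0.73, root minus shoot, a 0.605-fold ratio (two-sided exact permutation p 0.00216, the smallest that 6 against 6 libraries allow, adjusted 0.0162).

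The separation was narrow for this pair. Fe-deficient root replicate 1, at 40.4%, lay just under Fe-sufficient shoot replicate 2, at 41.0%, and their exact 95% binomial intervals, 37.2% to 43.8% and 34.9% to 47.4%, overlapped. Among root libraries the share varied beyond counting error: the interval of Fe-deficient replicate 2 was 27.4% to 32.3%.

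CesA8-A made up 39.7%, 39.5% and 40.7% of CesA8 reads in Fe-deficient roots and 36.8%, 43.2% and 32.3% in Fe-sufficient roots. In shoots its share was 20.1%, 30.1% and 17.4% without Fe and 20.3%, 20.3% and 18.3% with Fe. The mean was 38.7% ± 3.76 in roots and 21.1% ± 4.59 in shoots (SD, n = 6 each). The log2 ratio of CesA8-A to CesA8-B was higher by 1.26 in roots than in shoots, a 2.39-fold ratio (two-sided exact permutation p 0.00216, adjusted 0.0162).

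Of the shoot libraries, Fe-deficient replicate 2 had the highest CesA8-A share, from 63 of 209 reads (exact 95% binomial interval 24.0% to 36.9%). It is also the shoot library in which the 5 genes were lowest. The other 5 shoot libraries lay between 17.4% and 20.3%. Binomial intervals cover counting error only, since reads are not independent molecules.

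Both copy differences passed with any 1 of the 12 libraries left out (exact permutation test, adjusted p 0.0216 to 0.0325). Groups that are fully separated stay so without a library, so this outcome was fixed in advance and adds no support. In size, the differences in log2 ratio were then -0.80 to -0.66 for CesA7-A to CesA7-B and 1.19 to 1.40 for CesA8-A to CesA8-B. Reads that aligned to more than 1 place were set apart by the counter, at 8.93% to 9.92% of the reads in a root file and 8.07% to 9.79% in a shoot file. Counts of such near copies are therefore uncertain, and the part of dropped or misplaced reads in the shares was not tested. The reads came from Populus tomentosa while the IDs have the form of Populus trichocarpa, and the part of this in the shares was not tested. The different assignment of reads in root and shoot libraries, given above, also moved with these shares, and its part was not tested.

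**Figure D5:**
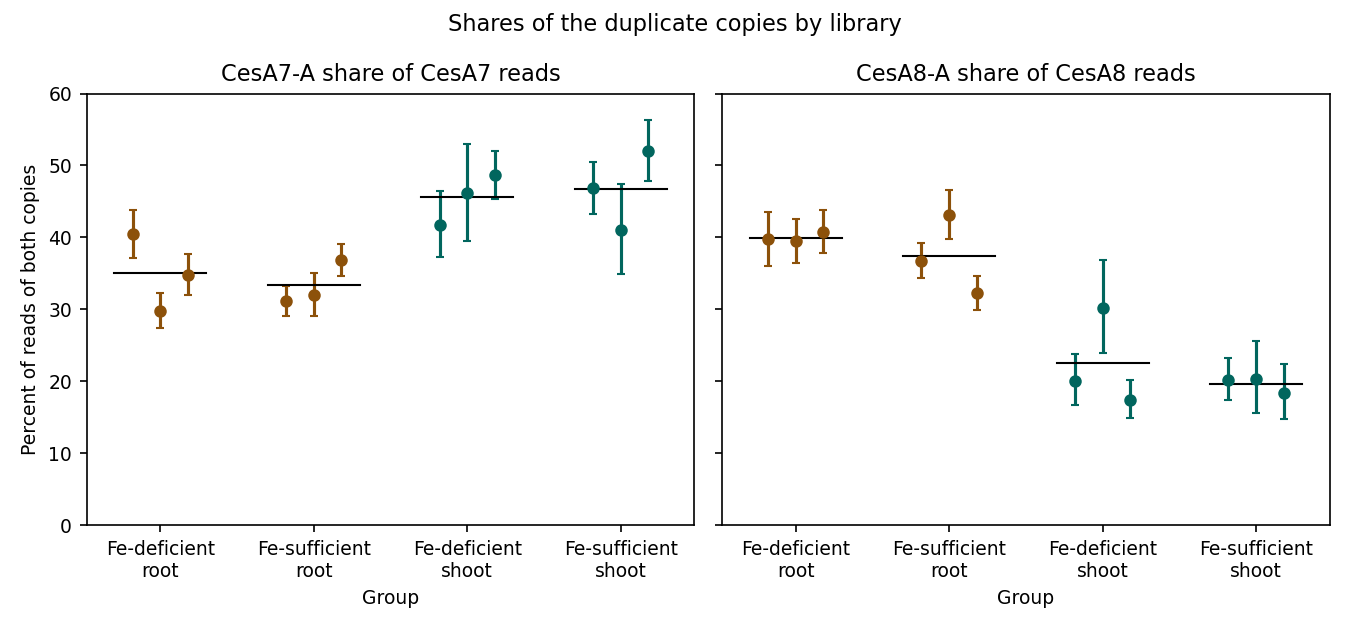
Share of the A copy in the reads of both copies, in percent, for CesA7 (left) and CesA8 (right) in each library; error bars are exact 95% binomial intervals and horizontal bars the means of 3 libraries. The 6 root libraries lie at 29.8% to 40.4% for CesA7-A and 32.3% to 43.2% for CesA8-A, against 41.0% to 52.1% and 17.4% to 30.1% in the 6 shoot libraries.

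Levels of single genes were then compared between tissues. Without Fe, 0 of 5 genes passed by edgeR, where 62.8% of all genes tested were called, with 1 gene, CesA8-A, at an unadjusted p under 0.05 (66.2% of all genes) and called by DESeq2 (63.8% of all genes). With Fe, 1 of 5 passed by edgeR and by DESeq2, where 63.9% of all genes were called by edgeR and 64.5% by DESeq2, and 32.7% were called as higher in roots. Both counts lie below the share of all genes.

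That gene was CesA8-A, with 44.1 ± 12.1 CPM in Fe-sufficient roots and 20.1 ± 11.2 CPM in Fe-sufficient shoots (SD, n = 3 each), which is 1.09 ± 0.37 (SE) on the log2 scale (adjusted p by edgeR 0.0205). Without Fe it averaged 34.6 ± 6.68 CPM in roots and 18.2 ± 7.22 CPM in shoots (SD, n = 3 each), or 0.89 ± 0.37 (SE) on the log2 scale (adjusted p by edgeR 0.0511). Its root and shoot libraries were separated without Fe and overlapped with Fe, where separation was found in 69.9% and 68.2% of all genes. The call with Fe was lost without Fe-sufficient root replicate 1, Fe-sufficient shoot replicate 2 or Fe-sufficient shoot replicate 3 (adjusted p by edgeR 0.0646, 0.0795 and 0.0748).

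For the other 4 genes the log2 fold changes, root over shoot, were between -0.52 ± 0.52 (CesA8-B) and 0.43 ± 0.48 (CesA7-B) without Fe, and between -0.15 ± 0.52 (CesA7-A) and 0.72 ± 0.48 (CesA7-B) with Fe (SE). In CPM, CesA8-B averaged 51.9 ± 10.7 in Fe-deficient roots and 72.9 ± 47.5 in Fe-deficient shoots, and CesA7-B averaged 97.1 ± 35.2 in Fe-sufficient roots and 57.2 ± 26.7 in Fe-sufficient shoots (SD, n = 3 each). Signs and calls between tissues rest on the scaling: with library totals that include reads of no gene and ambiguous reads, all 5 genes were higher in roots, with 3 called without Fe and 5 with Fe, where 83% and 85.2% of all genes were called. That scaling also moved the median of all genes, to 1.32 without Fe and 1.50 with Fe on the log2 scale.

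With the 4 groups ordered by mean CPM, neighbouring groups overlapped in each of the 5 genes. CesA4 averaged 119 ± 32.4 CPM in Fe-deficient roots, 130 ± 84.5 in Fe-deficient shoots, 139 ± 53.0 in Fe-sufficient shoots and 156 ± 50.3 in Fe-sufficient roots (SD, n = 3 each). For CesA7-A the order was Fe-deficient roots, Fe-deficient shoots, Fe-sufficient roots and Fe-sufficient shoots, at 35.9 to 52.5 CPM. CesA7-B and CesA8-A were lowest in Fe-deficient shoots and highest in Fe-sufficient roots, and CesA8-B was lowest in Fe-deficient roots and highest in Fe-sufficient shoots. The 5 genes summed to 311 ± 76.7 CPM in Fe-deficient roots and 423 ± 146 in Fe-sufficient roots, and to 314 ± 199 in Fe-deficient shoots and 350 ± 158 in Fe-sufficient shoots (SD, n = 3 each).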

How the data were processed

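The authors deposited raw counts of reads per gene ID, 1 file a library, with 5 rows of reads given to no gene. They were left out of tests and held 58.3% to 64.0% of reads in root files and 72.6% to 73.1% in shoot files. The submitters' processing notes name edgeR 3.16.5, HTSeq 2.2.1, HISAT2 2.0.5 and Trimmomatic 0.36. Settings, build and strand were not given in the sources used here. None of the IDs matched the 60139 genes of the reference table (0 of 42950), so no sequences or other pathway genes are given. Groups follow the labels' characteristics. Root replicates were numbered in accession order.

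edgeR 4.0.16 (R 4.3.3; TMM, filterByExpr, robust quasi-likelihood F test) was fitted on all genes, per tissue for Fe and on 12 libraries otherwise, and tested on simulated data. Calls needed a Benjamini-Hochberg adjusted p under 0.05. SE is the absolute log2 fold change over the square root of F, and 95% intervals use the fit's degrees of freedom. Read ratios and correlations were tested by exact permutation (SciPy 1.17.1). The rule for other named genes was the 2 per tissue with the highest r with the 5 genes' mean profile. Alternatives were DESeq2 1.42.0, other scalings and filters, other sets of libraries, a replicate block, 0.5 added to counts, shares in place of log2 ratios, and each library left out. The members and lists were chosen with earlier results of these data known. P-values judge a difference or an r against the spread between these samples only.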

Additional observations from a re-analysis of the deposited data

How the results depend on the processing

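The Fe comparisons gave 0 of 5 called genes in roots, in shoots and for the difference between tissues under every alternative run, also with shoot title numbers entered as a replicate block (0 of 5). Calls among all genes moved: 134 in roots became 0 to 71 with a library left out and 1109 by DESeq2, 252 in shoots became 64 to 571 and 517, and 313 for the difference became 104 to 264 and 855. Where few or no genes were called, 0 of 5 says nothing about stability. Whether the title numbers pair the shoot libraries cannot be decided with 3 libraries a group. Deviations of same-numbered libraries from their group means had an r of -0.13, 0.01 and 0.11, against -0.20 to 0.16 for libraries of unlike number. The block lowered the calls among all genes to 134, with log2 fold changes of -0.36 (CesA7-A) to -0.10 (CesA8-A) in the 5 genes. Signs in shoots turned without TMM for CesA4, CesA8-A and CesA8-B, to 0.090, 0.056 and 0.024, and with totals that include reads of no gene and ambiguous reads to 0.083, 0.050 and 0.018. They also moved the median of all genes, to 0.19 and 0.18. With 1 library left out, log2 fold changes in shoots were -0.72 to 0.27 (CesA4), -1.03 to 0.069 (CesA7-A), -0.75 to 0.17 (CesA7-B), -0.47 to 0.39 (CesA8-A) and -0.75 to 0.31 (CesA8-B), and the root minus shoot responses -0.65 to 0.33, -0.52 to 0.57, -0.67 to 0.25, -0.75 to 0.11 and -0.89 to 0.16 in the same order of genes.

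Between tissues without Fe, 1 gene (CesA8-A) was called in place of 0 by DESeq2 (63.8% of all genes), with RLE size factors (62.9%), with library totals without TMM (66.2%) and in a fit of only the 6 libraries without Fe (63.9%), and 3 with totals that include reads of no gene (83%). With Fe, 2 in place of 1 were called without TMM (70.2% of all genes) and 5 with the wider totals (85.2%). Either count was 0 to 1 with a library left out. Without TMM the log2 fold change turned to 0.18 (CesA4) and 0.033 (CesA7-A) without Fe, and to 0.35 (CesA7-A) and 0.38 (CesA8-B) with Fe. With the wider totals it turned to 1.11 (CesA4), 0.96 (CesA7-A) and 0.74 (CesA8-B) without Fe, and to 1.27 (CesA7-A) and 1.30 (CesA8-B) with Fe. With a library left out, it was -0.57 to 0.46 (CesA4), -0.71 to 0.43 (CesA7-A) and -0.97 to 0.047 (CesA8-B) without Fe, and -0.078 to 0.48, -0.52 to 0.19 and -0.42 to 0.37 with Fe.

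With a library left out, the Fe differences in log2 ratio in roots were -0.070 to 0.27 (CesA7-A/CesA7-B), -6.75e-05 to 0.14 (CesA4/CesA7) and -0.058 to 0.11 (CesA7/CesA8). In shoots they were -0.23 to 0.093 (CesA7-A/CesA7-B), -0.083 to 0.43 (CesA8-A/CesA8-B), -0.16 to 0.30 (CesA4/CesA7), -0.14 to 0.12 (CesA4/CesA8) and -0.18 to 0.093 (CesA7/CesA8). Between tissues they were -0.38 to -0.20 (CesA4/CesA7) and 0.16 to 0.28 (CesA7/CesA8). The cause of these turns was not tested. Adding 0.5 to counts or using shares changed no call of a ratio, and RLE or a prior count of 0.5 moved no count of passing correlations by more than 1.5 times. Leaving out a library in the correlations was added after the data were seen and turned no sign. The few reads of CesA8-A in shoots limit its share there.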
